A study of Mus musculus with 8 samples.

Results

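The miR-29 family was described in extracellular vesicles (EVs) released by mouse skeletal muscle. Members were taken from the table of miR counts by name, as every mature miR called miR-29a, miR-29b or miR-29c, which gave 7 of 1755 miRs. These were 3 arms from the 3p side of the precursor (mmu-miR-29a-3p, mmu-miR-29b-3p and mmu-miR-29c-3p) and 4 from the 5p side (mmu-miR-29a-5p, mmu-miR-29b-1-5p, mmu-miR-29b-2-5p and mmu-miR-29c-5p). All 7 passed the filter on low counts, at least 10 counts in at least 4 of 8 libraries, as did 1569 of the 1755 miRs.

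Small RNA was sequenced from 4 preparations of EVs from oxidative muscle (OXI-EV) and 4 from glycolytic muscle (GLY-EV) of untreated male C57BL/6J mice bought at 10 to 12 weeks of age. The oxidative preparations came from soleus together with red gastrocnemius and the glycolytic ones from quadriceps. Each used muscle of an individual animal and leg. The library labels carry a number that is called the preparation number here, and the sources used here do not say what it counts. Numbers 1, 4 and 5 occur in both groups, and whether they mark the same mouse is not given either. The paper analysed EV release from oxidative and glycolytic muscle as paired, which implies that both muscles came from the same mice in that assay. For the sequenced libraries it states no pairing. The tissue was kept in serum-free medium for 24 h, and EVs were recovered by ultrafiltration and size exclusion chromatography. EVs from whole muscle can come from fibres and from any other cell type of the tissue, and the groups differ in muscle as well as in fibre type.

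A miR precursor folds into a hairpin that is cut into a 5p and a 3p arm, and usually the arm of a single side is retained by Argonaute, the protein that carries it to its targets. Targets are chosen mainly through the seed, bases 2 to 8 of the mature miR. The miR-29 3p arms are known for lowering mRNAs of extracellular matrix proteins, such as collagens, elastin and fibrillin, and of the DNA methyltransferases Dnmt3a and Dnmt3b. In skeletal muscle they are known to favour myogenic differentiation and to be low in dystrophic, fibrotic tissue.

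The mature sequences are shown because they set which members can act on the same targets and which can be told apart by sequencing. They are from RefSeq (GRCm38.p6), where all 7 members were matched, and capitals mark the seed.
mmu-miR-29a-3p: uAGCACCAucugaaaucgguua
mmu-miR-29c-3p: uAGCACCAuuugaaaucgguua
mmu-miR-29b-3p: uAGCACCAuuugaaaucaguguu
mmu-miR-29a-5p: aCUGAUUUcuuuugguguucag
mmu-miR-29c-5p: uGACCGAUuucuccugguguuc
mmu-miR-29b-1-5p: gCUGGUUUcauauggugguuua
mmu-miR-29b-2-5p: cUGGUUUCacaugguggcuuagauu
The 3p arms all shared the seed AGCACCA, which no other mature miR of the reference table carried. The 5p arms had 4 different seeds. Counted from the 5′ end, miR-29a-3p and miR-29c-3p differed at 1 position (C10U, with the base of miR-29a-3p first). miR-29b-3p differed from miR-29a-3p at 4 positions (C10U, G18A, U21G and A22U) and was 1 base longer. Counts of miR-29a-3p and miR-29c-3p therefore rest on a single base, and how the counting treated mismatches is not given in the sources used here.

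The members come from 4 genes in 2 clusters (GRCm38, annotation from GENCODE M21). Mir29a (chr6:31062660-31062747) and Mir29b-1 (chr6:31063023-31063093) lie 275 bases apart on the minus strand of chromosome 6. The outermost bases at the 5′ end of Mir29b-1 overlap an exon of the long non-coding RNA Gm27019 (chr6:31063092-31063495). Mir29b-2 (chr1:195037040-195037120) and Mir29c (chr1:195037547-195037634) lie 426 bases apart on the plus strand of chromosome 1. Both are within an exon of the non-coding host transcript A330023F24Rik, and on the opposite strand within the annotated untranslated region of Cd46. The miR-29b-3p sequence is the same from both clusters, so its counts cannot be assigned to a gene, whereas the 5p arms of miR-29b are specific to their gene. The Mir29a hairpin is shown to place both arms, which are in capitals, the 5p arm at bases 16 to 37 and the 3p arm at bases 54 to 75.
Mir29a hairpin: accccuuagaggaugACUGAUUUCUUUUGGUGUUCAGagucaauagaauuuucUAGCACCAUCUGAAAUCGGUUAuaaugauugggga

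The libraries held 13532484 to 17122593 reads, of which 4151145 to 4867396 mapped in OXI-EV and 5179262 to 7197716 did in GLY-EV. The miR counts, which appear to be counts of molecules after reads with the same molecular tag were collapsed, summed to 348730 to 572106 across OXI-EV and 587068 to 1004011 across GLY-EV. Levels are given as counts for each 1000000 mapped reads (CPM). The libraries of replicate 4 had the fewest miR reads per miR count, 3.14 in OXI-EV and 2.63 in GLY-EV, against 3.76 to 4.94 in the other 6, and, within each group, the most miR counts for each mapped read, which raises their CPM.

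miR-29a-3p was the most abundant member in every library. It was counted 376, 595, 507 and 1128 times in OXI-EV replicates 1 to 4, and 2999, 3135, 1729 and 3863 times in GLY-EV replicates 1 to 4. In CPM these were 86.4, 143, 109 and 232 in OXI-EV and 433, 436, 303 and 746 in GLY-EV. The groups did not overlap, with replicate 4 the highest in each. The means were 143 ± 63.9 CPM (SD, n = 4) in OXI-EV and 479 ± 188 CPM (SD, n = 4) in GLY-EV. By rank, miR-29a-3p was between the 18th and the 29th most abundant miR of every library.

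miR-29c-3p, the second member by level, was counted 60, 166, 79 and 330 times in OXI-EV and 633, 587, 319 and 862 times in GLY-EV. Its CPM were 13.8, 40.0, 16.9 and 67.8 in OXI-EV and 91.5, 81.6, 55.9 and 166 in GLY-EV. OXI-EV replicate 4 was above GLY-EV replicate 3, so the groups overlapped by that pair. The means were 34.6 ± 25.01 CPM and 98.8 ± 47.5 CPM (SD, n = 4 each).

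miR-29b-3p, the only member made from both clusters, was counted 32, 61, 58 and 72 times in OXI-EV and 178, 157, 222 and 902 times in GLY-EV. Its CPM were 7.36, 14.7, 12.4 and 14.8 in OXI-EV and 25.7, 21.8, 38.9 and 174 in GLY-EV. The groups did not overlap, and GLY-EV replicate 4 stood far above the other 3 libraries of its group. The means were 12.3 ± 3.48 CPM and 65.1 ± 73.0 CPM (SD, n = 4 each), and the GLY-EV mean rests largely on that library.

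The 5p arms were rare, with 3 to 104 counts in any library. miR-29a-5p, from the same hairpin as the most abundant member, was counted 15, 18, 19 and 23 times in OXI-EV and 14, 11, 5 and 25 times in GLY-EV. At such counts the precision is low, and the 5 counts of GLY-EV replicate 3 have an exact Poisson interval (95%) of 1.62 to 11.7 counts, which covers counting error only. miR-29c-5p was counted 26, 32, 21 and 51 times in OXI-EV and 28, 20, 28 and 57 times in GLY-EV. The groups overlapped for both arms.

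The 5p arms of miR-29b are the only products that tell its genes apart. miR-29b-1-5p, from chromosome 6, was counted 5, 7, 10 and 11 times in OXI-EV and 11, 10, 8 and 21 times in GLY-EV. miR-29b-2-5p, from chromosome 1, was counted 3, 104, 7 and 19 times in OXI-EV and 14, 15, 19 and 19 times in GLY-EV. The groups overlapped for both, and the 104 counts of OXI-EV replicate 2 stood apart from every other library. The median miR of the table averaged 22.9 counts over the 8 libraries, and the 5p arms averaged 10.4 to 32.9, so they lay with the bulk of the table. The 3p arms averaged 210, 380 and 1792 counts, above 95.7% to 98.9% of all miRs.

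**Figure D1:**
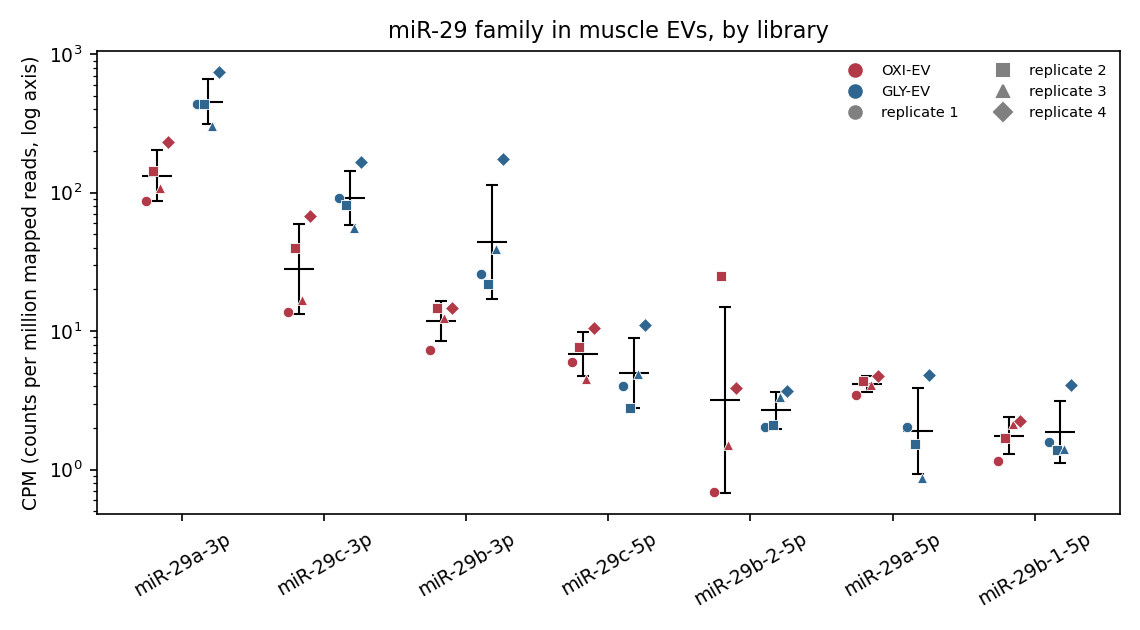
Level of each miR-29 arm in each library, as CPM on a log axis. Coloured symbols are libraries (OXI-EV red, GLY-EV blue, symbol shape by replicate), and the black bar with whiskers is the mean with 1 SD of the log2 values (n = 4). miR-29a-3p and miR-29b-3p are lower in every OXI-EV library than in any GLY-EV library, and the 5p arms overlap.

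The first question was whether the members differed between OXI-EV and GLY-EV. Members were compared by the quasi-likelihood test of edgeR, with mapped reads as library size and p-values adjusted over all 1569 miRs (Benjamini-Hochberg), and a fold change below 0 means a lower level in OXI-EV. On this scale, with the samples treated as unpaired, 0 of 7 members passed an adjusted p of 0.05. Of all miRs tested, 1.78% passed as lower in OXI-EV and 0.0637% as higher. miR-29a-3p came nearest, with a log2 fold change of -1.75 (SE 0.43, adjusted p = 0.0656, lower in 4 of 4 OXI-EV libraries than in any GLY-EV library). miR-29b-3p had -2.40 (SE 0.70, adjusted p = 0.149) and miR-29c-3p -1.51 (SE 0.59, adjusted p = 0.273). At an unadjusted p under 0.05, each of the 3p arms was lower in OXI-EV, against 5.42% of all miRs tested. The 3p arms are abundant, and such a p was common among abundant miRs. In the same test fitted only to the 130 miRs averaging at least 100 counts, 68 were lower at an unadjusted p under 0.05.

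The 5p arms had no common direction. Their log2 fold changes were 0.85 for miR-29a-5p (SE 0.58, adjusted p = 0.504), 1.48 for miR-29b-2-5p (SE 0.89, adjusted p = 0.443), 0.34 for miR-29c-5p (SE 0.54, adjusted p = 0.780) and -0.21 for miR-29b-1-5p (SE 0.73, adjusted p = 0.906). None of these passed the test. Without OXI-EV replicate 2, miR-29b-2-5p turned to -0.43. Without GLY-EV replicate 4, miR-29b-1-5p turned to 0.31 and the value for miR-29b-3p dropped to -1.22.

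The call on the 3p arms depended on the processing. miR-29a-3p had an adjusted p under 0.05 in 12 of 13 alternatives in scale, filter, tool or block. With mapped reads it was 0.00620 with at least 10 counts in all libraries, 0.0115 with limma-voom and 0.00147 with DESeq2. In the edgeR test with mapped reads, the adjusted p of miR-29a-3p was 0.00585 with replicate number as a block and 0.0416 with preparation number. With the trimmed mean of M-values (TMM), which sets the scale from the bulk of the miRs, each of the 3p arms was lower in OXI-EV in the same edgeR test. Their log2 fold changes were -2.25 for miR-29a-3p (SE 0.35, adjusted p = 0.00329), -2.55 for miR-29b-3p (SE 0.48, adjusted p = 0.00971) and -2.04 for miR-29c-3p (SE 0.45, adjusted p = 0.0240). On this scale 5.42% of all miRs passed as lower and 0.0637% as higher. miR-29a-3p and miR-29b-3p stayed under 0.05 whichever library was left out, with adjusted p up to 0.0210 and 0.0365. miR-29c-3p passed in 3 of these 8 fits and reached an adjusted p of 0.0672 to 0.0772 in the 5 without OXI-EV replicate 1, 2 or 3 or GLY-EV replicate 2 or 4.

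The scales also moved the centre of the whole table, though not every miR by the same amount. The median log2 fold change over the 1569 miRs was 0.48 with mapped reads, 0.09 with TMM and 0.98 with total miR counts. Measured against that median, miR-29a-3p was -2.35 to -2.23 over the 5 scales tried, miR-29b-3p -2.88 to -2.61 and miR-29c-3p -2.14 to -1.99. On the same footing miR-29a-5p was 0.37 to 0.49, miR-29b-2-5p 0.70 to 1.00, miR-29c-5p -0.14 to -0.06 and miR-29b-1-5p -0.69 to -0.60. In absolute terms the 3p arms had negative fold changes on all 5 scales, whereas miR-29b-1-5p turned from negative to positive with total miR counts, whether or not these included miR-206-3p and miR-1a-3p. With total miR counts miR-29a-5p passed as higher in OXI-EV at an adjusted p under 0.05, a scale on which 188 of 1569 miRs did.

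**Figure D2:**
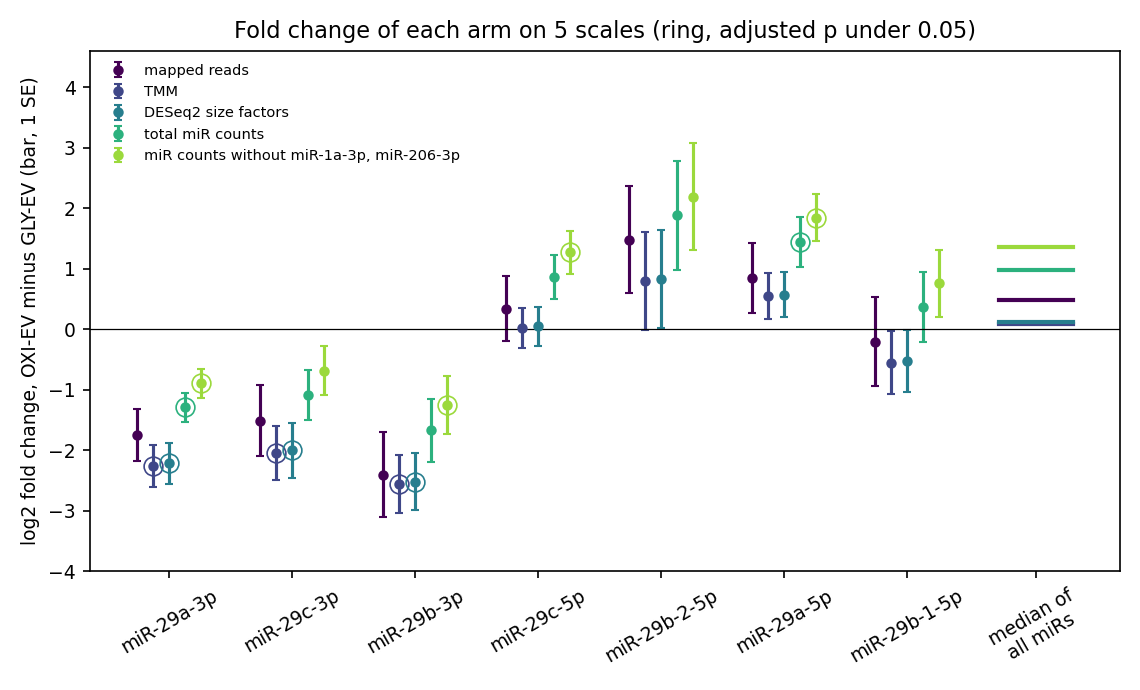
Log2 fold change (OXI-EV minus GLY-EV) of each miR-29 arm on 5 scales, with 1 SE, from edgeR's quasi-likelihood test. Rings mark an adjusted p under 0.05, and lines at the right give the median of all 1569 miRs on each scale, from 0.09 to 1.36. The 3p arms are below 0 on every scale, and both the 3p and the 5p arms move up and down with the median.

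The 3p arms were not alone in this difference, which was common among abundant miRs. Of the 129 tested miRs that averaged at least 100 counts, 21.7% were lower in OXI-EV by the edgeR test with mapped reads and 51.2% with TMM. The median log2 fold change of these 129 miRs was -1.12 with mapped reads and -1.62 with TMM. Against that median miR-29a-3p was -0.63 on both scales, miR-29c-3p -0.39 and -0.42, and miR-29b-3p -1.28 and -0.93. With mapped reads, 33 of the 129 had a lower fold change than miR-29a-3p, 49 a lower one than miR-29c-3p and 8 a lower one than miR-29b-3p. The CPM of miR-29a-3p and miR-29b-3p did not overlap between the groups, which held for 4.53% of all miRs tested in that direction and for 44.2% of the 129. A lower level was thus not particular to miR-29.

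**Figure D3:**
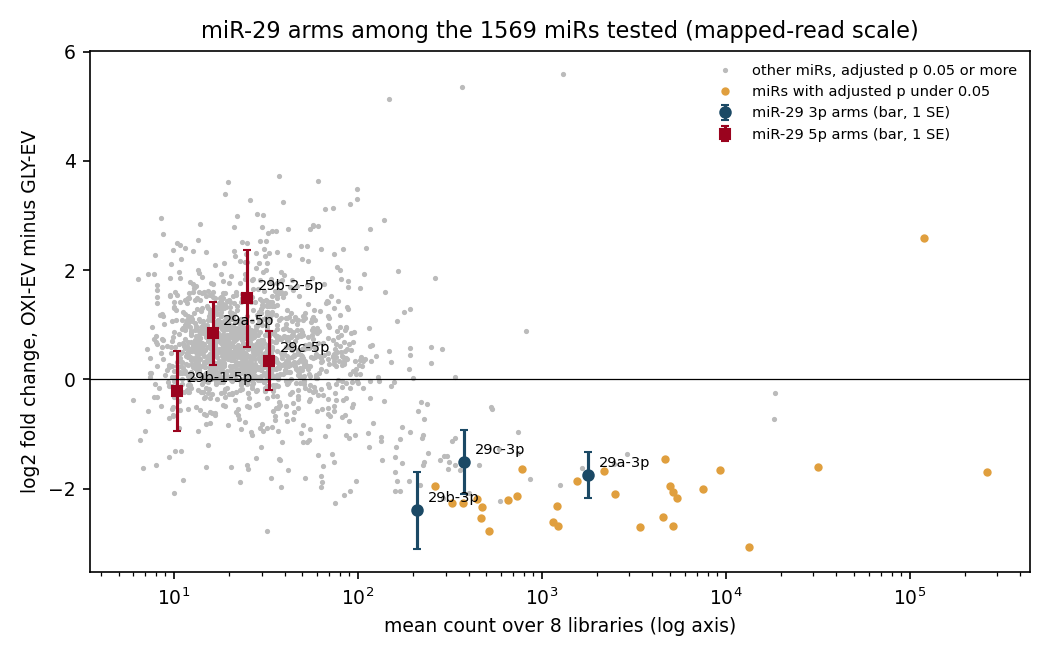
Log2 fold change (OXI-EV minus GLY-EV, mapped-read scale) against the mean count over 8 libraries, on a log axis, for the 1569 miRs tested. Orange points passed an adjusted p of 0.05, and the miR-29 arms carry bars of 1 SE. The 3p arms lie among the abundant miRs below 0, and the 5p arms lie within the cloud of miRs near the median count of 22.9.

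The second question was whether the make-up of the family differed. Of the summed 3p arms, miR-29a-3p accounted for 76.3% ± 3.84 of OXI-EV counts and for 76.1% ± 5.31 of GLY-EV counts (SD, n = 4 each). miR-29c-3p made up 16.7% ± 4.85 and 15.3% ± 1.05, and miR-29b-3p 6.99% ± 1.78 and 8.63% ± 5.56. The groups overlapped for each. The lowest and highest shares of miR-29b-3p were both in GLY-EV, 4.05% in replicate 2 (Wilson 95% interval 3.47 to 4.71) and 16.0% in replicate 4 (15.1 to 17.01).

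The ratios between members were compared as log2 ratios within each library, with an exact two-sided permutation test over the 70 assignments of 8 libraries to groups. The ratio of miR-29a-3p to miR-29c-3p was 3.42 to 6.42 across OXI-EV and 4.48 to 5.42 across GLY-EV, a log2 difference of -0.08 (exact p = 0.743). Within OXI-EV, replicates 1 and 3 had ratios of 6.27 and 6.42 and replicates 2 and 4 ratios of 3.58 and 3.42. The ratio of miR-29a-3p to miR-29b-3p was 8.74 to 15.7 across OXI-EV and 4.28 to 19.97 across GLY-EV, a log2 difference of 0.11 (exact p = 0.857). For miR-29c-3p to miR-29b-3p the difference was 0.20 (exact p = 0.771). No difference was detected, and SDs of 0.13 to 1.03 on the log2 scale limit what could be seen.

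**Figure D4:**
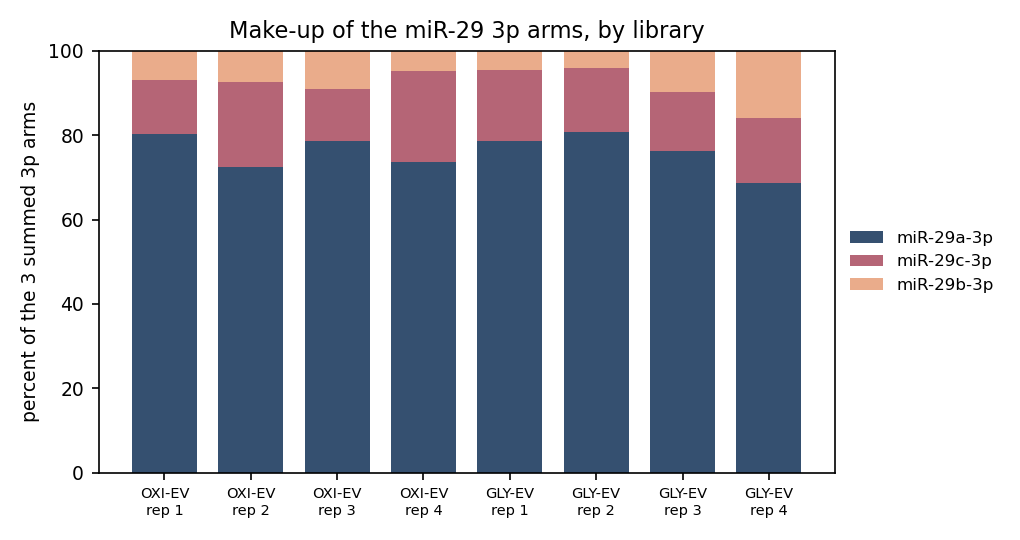
Percent of the summed 3p arm counts contributed by each of miR-29a-3p, miR-29c-3p and miR-29b-3p in each library. miR-29a-3p takes 68.7% to 80.8% in every library, and miR-29b-3p within GLY-EV ranges from 4.05% to 16.0%.

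The third question was whether the arms of a hairpin kept their ratio. miR-29a-3p was counted 25.1, 33.1, 26.7 and 49.0 times for each count of miR-29a-5p in OXI-EV, and 214, 285, 346 and 155 times in GLY-EV. The groups did not overlap, and the log2 difference was -2.86 (exact p = 0.0286, a 7.24-fold higher ratio in GLY-EV). For miR-29c the ratio was 2.31, 5.19, 3.76 and 6.47 in OXI-EV and 22.6, 29.4, 11.4 and 15.1 in GLY-EV. The groups again did not overlap (log2 difference -2.15, exact p = 0.0286). For miR-29b, with both 5p arms summed, the ratio was 4.00, 0.55, 3.41 and 2.40 in OXI-EV and 7.12, 6.28, 8.22 and 22.6 in GLY-EV (log2 difference -2.22, exact p = 0.0286). The low value of OXI-EV replicate 2 comes from its 104 counts of miR-29b-2-5p, and without that library the difference was -1.59.

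The exact p of 0.0286 is the smallest that 4 against 4 libraries allow. Adjusted over the 6 ratios tested, it became 0.0571, so no arm ratio passed 0.05 after adjustment, and no arm ratio can pass with a library left out, since the smallest p is then 0.0571. These ratios need no library size, so they do not depend on the scale. Groups that do not overlap were found in 10.8% of all 511 arm pairs with both arms tested, and in 36.8% of the 76 pairs whose more abundant arm averaged at least 100 counts. In 35.5% (27) of those 76 pairs the more abundant arm was also relatively lower in OXI-EV, as for miR-29a and miR-29c. The median log2 difference of the major to minor arm over the 76 pairs was -1.07, against -2.86 for miR-29a and -2.15 for miR-29c.

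**Figure D5:**
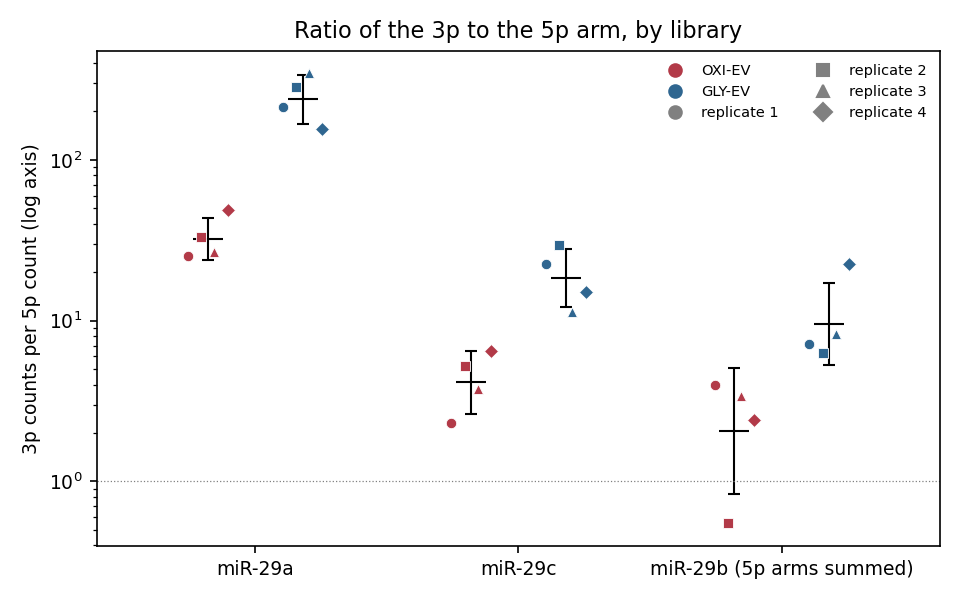
Counts of the 3p arm for each count of the 5p arm in each library, on a log axis, for miR-29a, miR-29c and miR-29b (both 5p arms summed). Black bars give the mean with 1 SD of the log2 ratios (n = 4). The OXI-EV libraries sit at 0.55 to 49.0 and below every GLY-EV library of the same hairpin.

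As a share of all miR counts, the 3p arms summed to 0.197% ± 0.0577 in OXI-EV and 0.479% ± 0.0722 in GLY-EV (SD, n = 4 each). The mean share of GLY-EV was 2.44-fold that of OXI-EV, and the libraries ranged from 0.128% to 0.267% and from 0.387% to 0.560%. The ratio was 1.85 once the muscle miRs miR-206-3p and miR-1a-3p were taken out of the total, and 3.40 per mapped read. The summed 3p arms of GLY-EV replicate 4, the highest in CPM at 1086 against 398 to 550 in the other GLY-EV libraries, made up 0.560% of miR counts, also the highest share. Other abundant miRs also had lower shares in OXI-EV. With total miR counts as scale in the edgeR test, 45 of the 129 abundant miRs passed as lower in OXI-EV and 11 as higher. The median log2 fold change of the 129 was -0.72, against -1.29 for miR-29a-3p, -1.67 for miR-29b-3p and -1.08 for miR-29c-3p.

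The 3p arms varied together across libraries. In log2 CPM over the 8 libraries, Pearson's r was 0.96 between miR-29a-3p and miR-29c-3p, 0.86 between miR-29a-3p and miR-29b-3p and 0.81 between miR-29b-3p and miR-29c-3p. With the group means removed these were 0.97, 0.66 and 0.59. The points share library, depth and scale, and these values are a description. Over the 8 libraries, r with miR-29a-3p was higher for miR-29c-3p than for 98.0% of tested miRs outside the family, and for miR-29b-3p than for 95.1%. The 5p arms had r with miR-29a-3p of -0.29 (miR-29a-5p), 0.47 (miR-29b-1-5p), 0.09 (miR-29b-2-5p) and 0.02 (miR-29c-5p) over the 8 libraries. With group means removed these were 0.78, 0.78, 0.41 and 0.72. Varying with miR-29a-3p within the groups was thus not particular to the 3p arms.

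Outside the family, the miRs with profiles most like miR-29a-3p were sought by the same r among the tested miRs. Of the 5 with the highest r over 8 libraries, the most abundant were miR-30d-5p (r = 0.99, log2 fold change -1.62, adjusted p = 0.0811) and miR-126a-3p (r = 0.99, -1.93, adjusted p = 0.103), and miR-99a-5p was the member of that list past the edgeR threshold (r = 0.98, -2.19, adjusted p = 0.0341). After group means were removed, the most abundant of the 5 highest were miR-30a-5p (r = 0.98, -1.56, adjusted p = 0.157) and again miR-126a-3p (r = 0.99). miR-126a is known as an endothelial miR.

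Levels of miRs known from other cell types of muscle are given beside these results. The 2 endothelial miRs (miR-126a arms) summed to 53.1 to 198 CPM across OXI-EV and 201 to 772 CPM across GLY-EV. The 5 entries of the fibroblast and mesenchymal list (miR-199 and miR-214 arms) summed to 118 to 263 and 536 to 1255 CPM, and the 3 smooth muscle miRs (miR-143 and miR-145a arms) to 267 to 505 and 783 to 2039 CPM. For these 3 lists the groups did not overlap. The same held singly for miR-29a-3p, for 4.53% of all miRs tested and for 44.2% of the 129 abundant ones. The 4 fibre miRs (miR-1a, miR-133a, miR-133b and miR-206) summed to 51953 to 84334 and 64679 to 122047 CPM and overlapped in sum. Singly, all 4 passed the edgeR test with mapped reads, miR-133a-3p (-3.06), miR-133b-3p (-2.68) and miR-1a-3p (-1.69) as lower in OXI-EV and miR-206-3p (2.58) as higher. In the endothelial list none passed, and in the fibroblast and smooth muscle lists 1 each did, as lower. By this test 1.78% of all miRs passed as lower and 0.0637% as higher, and 21.7% of the 129 abundant ones passed as lower. The 5 leukocyte miRs (26.2 to 55.4 and 36.1 to 131 CPM), the 3 erythroid (3.45 to 65.5 and 5.70 to 29.5 CPM), the 3 neural (17.9 to 175 and 33.3 to 185 CPM) and liver miR-122-5p (1.15 to 7.71 and 1.95 to 4.44 CPM) overlapped too. No marker was at 0 in all libraries. The part of these cell types in the miR-29 values was not tested, and fewer vesicles from a cell type cannot be told apart from less miR in each vesicle.

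The other miRs that share a known role with miR-29 were read from lists. These were chosen with earlier results of these data known, so their counts are a description and test no shared role. Of 18 other miRs described as restraining fibrosis through collagen, Ctgf or TGF-beta signalling, 6 were lower in OXI-EV by edgeR with mapped reads and 9 with TMM, and none was higher on either scale. Over all miRs tested 1.78% and 5.42% were lower, and 21.7% and 51.2% of the 129 abundant ones. The 6 were miR-26a-5p (log2 fold change -2.68, SE 0.42, adjusted p = 0.00489), miR-133a-3p (-3.06, SE 0.58, adjusted p = 0.0163), miR-133b-3p (-2.68), miR-101a-3p (-2.13), miR-101b-3p (-2.21) and miR-26b-5p (-2.31). The median of the 18 was -1.51 with mapped reads and -1.88 with TMM, beside 0.48 and 0.09 over all miRs tested, and 12 of the 18 averaged at least 100 counts, a class whose medians were -1.12 and -1.62. miR-30b-5p, miR-18a-5p, miR-19a-3p, miR-19b-3p and the miR-200 arms had values of 0.08 to 1.99 with mapped reads and did not pass the test, and those of miR-19b-3p and miR-200a-3p were below 0 with TMM.

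Of 3 other miRs that target DNA methyltransferases, miR-148a-3p was lower in OXI-EV (log2 fold change -2.53, SE 0.48, adjusted p = 0.0163 by edgeR), and miR-152-3p (-1.70, adjusted p = 0.191) passed only with TMM (-2.16, adjusted p = 0.00791). miR-148b-3p had -1.02 (adjusted p = 0.460). Of 8 miRs described as promoting fibrosis, 1 was lower with mapped reads (miR-125b-5p, -2.05, SE 0.40, adjusted p = 0.0215) and 2 with TMM, miR-199a-5p being the other (-1.83, adjusted p = 0.0442). The shares of all and of abundant miRs given above apply here too. Their median was -0.51 with mapped reads and -0.96 with TMM, and 4 of the 8 averaged at least 100 counts. miR-21a-5p, known to promote fibrosis, had -0.54 (SE 0.67, adjusted p = 0.723).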

How the data were processed

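Per the labels, libraries of EV RNA were prepared with the QIAseq miRNA kit, whose reads carry molecular tags, and the table of read classes has a class for reads with a defective tag. Per the labels the authors trimmed reads with cutadapt and aligned them with STAR to GRCm38, in versions that the sources used here do not give. The deposited table holds raw counts per miR in 8 columns, and 4 further columns with the authors' own comparison (fold change, its log2, p-value and false discovery rate), which were not used. A second deposited table gives read counts per class, from which mapped reads were taken.

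Counts were tested with edgeR 4.0.16 (R 4.3.3) by the quasi-likelihood test, mapped reads as library size, at least 10 counts in at least 4 libraries, Benjamini-Hochberg adjustment and a threshold of 0.05. SE is the absolute log2 fold change over the root of F. Mapped reads count reads and the miR table appears to count molecules, so CPM also moves with reads per molecule. Ratios used a pseudocount of 0.5 in the tests and none where a ratio is printed. Alternatives used TMM, other scales and filters, DESeq2 1.42.0, limma 3.58.1, replicate blocks and left-out libraries. Scripts were tested on simulated data. Adapter ligation differs between sequences, so ratios between miRs are not molar ratios.

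The members, lists and marker miRs were chosen with earlier results of these data known. All members are named. Among other miRs, the 5 with the highest r with miR-29a-3p over 8 libraries and the 5 highest after group means were removed (log2 CPM, prior count 2) were listed, and of each list the 2 most abundant and those past the threshold are named. Profile values are from CPM with mapped reads. Labels give 4 samples in each group, and p-values set the difference between the groups against the variation between these samples.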

Additional observations from a re-analysis of the deposited data

Results flagged for a closer look

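Dixon's criterion was applied to 26 groups of 4 libraries (7 members in CPM and 6 log2 ratios, in OXI-EV and GLY-EV). In 3 of these a library was far from the others. For independent groups of normal values chance gives about 1 in 20. These groups share libraries and members, and CPM was not log-transformed, so that rate does not apply here. miR-29b-3p was at 174 CPM in GLY-EV replicate 4, against 21.8 to 38.9 CPM in the other 3. miR-29b-1-5p was at 4.05 CPM in the same library (21 counts, against 8 to 11). GLY-EV replicate 4 had the most miR counts for each mapped read of its group, which raises its CPM. miR-29b-2-5p was at 25.1 CPM in OXI-EV replicate 2 (104 counts), against 0.69 to 3.90 CPM, and this library did not stand apart for any other member.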

How the results depend on the processing

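The paper analysed EV release as paired between the muscles but states no pairing for the sequenced libraries. Whether the sequenced groups are paired by mouse was not settled, and the main test treated the samples as unpaired. OXI-EV and GLY-EV libraries with the same replicate number had deviations that correlated at -0.15 to 0.16. Of 4 pairs 1 was over 0.1, and 2 of 8 libraries correlated best with their own number. Replicate 2 joins preparation number 3 of OXI-EV with number 2 of GLY-EV, and weak correlations do not exclude pairing. With a replicate block, miR-29a-3p had a log2 fold change of -1.77 (adjusted p = 0.00585 by edgeR), 1 member passed and 42 of 1569 miRs passed, against 29 without the block.

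With mapped reads 0 of 7 members and 29 miRs passed. With TMM 3 members and 86 miRs passed, at log2 fold changes of -2.25, -2.55 and -2.04 for miR-29a-3p, miR-29b-3p and miR-29c-3p. With DESeq2 size factors in edgeR 3 and 86 passed (-2.22, -2.52 and -2.001), and with DESeq2 and its own size factors 3 and 128 (-2.22, -2.52 and -1.9997). With total miR counts 2 and 236 passed (48 lower, 188 higher) and miR-29a-3p had -1.29. With miR-206-3p and miR-1a-3p taken out of the total 4 and 953 passed (42 lower, 911 higher), with -0.89 for miR-29a-3p and -1.25 for miR-29b-3p. The members higher in OXI-EV were miR-29a-5p on both of these scales and miR-29c-5p on the latter. With at least 10 counts in all libraries 2 members and 58 of 814 miRs tested passed, and with a mean of at least 100 counts 2 and 64 of 130. The only members tested were the 3p arms and miR-29c-5p in the former fit and the 3p arms in the latter. With DESeq2 and mapped reads 2 and 86 passed, and with the likelihood ratio test 2 and 54. In these 4 fits miR-29a-3p had -1.75 and miR-29b-3p -2.40. With limma-voom 1 member passed (miR-29a-3p, -1.76), and with the preparation number as a block 1 (-1.83, adjusted p = 0.0416). With no filter 0 members passed. miR-29b-1-5p turned to 0.36 with total miR counts, 0.76 with miR-206-3p and miR-1a-3p taken out, and 0.095 with limma-voom. miR-29b-2-5p turned to -0.76 with the preparation block. The cause of these changes was not tested.

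With a library left out, 0 to 1 members and 10 to 29 miRs passed with mapped reads. This count was 16 without OXI-EV replicate 1, 11 without replicate 2 and 10 without replicate 3, and 18 without GLY-EV replicate 1 and 15 without replicate 2. miR-29a-3p was -2.09 to -1.45 and passed only without OXI-EV replicate 4 (adjusted p = 0.0315). miR-29b-3p was -2.69 to -1.22 and miR-29c-3p -2.07 to -1.14. miR-29b-1-5p was -0.36 to 0.31 and miR-29b-2-5p -0.43 to 1.86. Chosen after seeing the data, fits with TMM and a library left out gave miR-29c-3p -2.48 to -1.81, and TMM with the replicate block ended no 3p call. The arm ratios were -3.06 to -2.70 for miR-29a, -2.52 to -1.59 for miR-29b and -2.38 to -1.87 for miR-29c, all at exact p = 0.0571, the smallest 3 against 4 libraries allow. The member ratios changed sign, at -0.23 to 0.069 for miR-29a-3p to miR-29c-3p, -0.31 to 0.43 for miR-29a-3p to miR-29b-3p and -0.18 to 0.48 for miR-29c-3p to miR-29b-3p. The family's share, 2.44 times higher in GLY-EV per miR count, was 3.40 times per mapped read. Other pseudocounts changed no ratio's side of 0.05. The low counts of the 5p arms limit every arm ratio.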
